A study of Homo sapiens with 2 samples.

Results

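The transcripts described here encode 10 heat shock proteins of the cytosol and the mitochondria, namely HSPA1A, HSPA1B, HSPA8, HSP90AA1, HSP90AB1, HSPH1, DNAJB1, HSPB1, HSPD1 and HSPE1. They were chosen by gene symbol and not by their values, although earlier results of these data were known. All 10 were found among the 44591 genes of the count table. All 10 also passed the minimum of 10 reads summed over both libraries, which 19840 genes of the table passed. The cells were HSC-1, an established line of human cutaneous squamous cell carcinoma. One culture received control siRNA, siNC, and the other siLINP1, which targets the long non-coding RNA LINP1. Transfection was at about 70% confluency, and both cultures then spent 6 h without serum and 24 h in medium with serum, as the labels give it, whereas the study's general methods for transfection give a higher confluency and another time of RNA extraction. Each culture gave 1 RNA-seq library, and which of the siRNAs designed against LINP1 was used is not named. LINP1 had 167 reads in siNC and 23 in siLINP1, a log2 fold change of -2.65 with a 95% counting interval from -3.35 to -2.02.

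Heat shock proteins are molecular chaperones, which bind proteins that are unfolded or newly made and help them to fold, to assemble or to be degraded. Some of them are made at all times, and others are induced when heat, oxidants or other stress unfold proteins and the transcription factor HSF1 binds heat shock elements, arrays of inverted GAA repeats in the promoters of its targets. Carcinoma cells often hold high levels of these chaperones, and keratinocytes, the cells from which cutaneous squamous cell carcinoma arises, are rich in HSPB1.

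The sequences before the start sites of the members are shown because HSF1 is known to act through elements of this kind in the promoters of heat shock genes. In the 250 bases before the start of the canonical transcript, a pair of inverted repeats, GAANNTTC or TTCNNGAA (each reads the same on both strands), was found in 8 of the 10 members, and in 9.43% of the 19874 windows of protein-coding genes. At least 3 units in alternating orientation, which is an overlap of the 2 motifs, were found in HSPA8, HSP90AA1, HSPH1 and HSPD1, that is in 4 of 10, against 0.322% of all windows. HSP90AB1 and HSPE1 had no match in this window. For each of the 8 members with a match, 30 bases of GRCh37 around the motifs nearest to the start are given 5′ to 3′ on the strand of the gene, with the repeats in capitals.
HSPA1A: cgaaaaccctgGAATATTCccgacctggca
HSPA1B: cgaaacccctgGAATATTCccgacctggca
HSPA8: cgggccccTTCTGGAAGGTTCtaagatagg
HSP90AA1: cTTCCGGAAGGTTCgggaggcTTCTGGAAa
HSPH1: gccgcagaTTCTGGAAAGTTCtgatcagtg
DNAJB1: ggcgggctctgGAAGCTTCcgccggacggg
HSPB1: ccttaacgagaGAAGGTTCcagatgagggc
HSPD1: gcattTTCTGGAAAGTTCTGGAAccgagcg

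These stretches are, in the same order, HSPA1A chr6:31783203-31783232 (plus strand), HSPA1B chr6:31795399-31795428 (plus strand), HSPA8 chr11:122932878-122932907 (minus strand), HSP90AA1 chr14:102553441-102553470 (minus strand), HSPH1 chr13:31736079-31736108 (minus strand), DNAJB1 chr19:14629238-14629267 (minus strand), HSPB1 chr7:75931797-75931826 (plus strand) and HSPD1 chr2:198364785-198364814 (minus strand). HSPA1A and HSPA1B hold the same element, with the repeats at 99 to 106 and at 98 to 105 bases before the start, and their 250-base windows differ by 16 edits. The elements of HSPA8, HSPH1 and DNAJB1 lie within 55, 59 and 47 bases of the start, whereas that of HSPB1 lies 175 to 182 bases away. HSPD1 and HSPE1 are neighbours that are transcribed away from each other, with 538 bases between their canonical starts. The array of HSPD1 lies 228 to 245 bases before its own start and 294 to 311 bases before that of HSPE1, outside the 250 bases searched for the latter. The gene spans of the count table reach farther 5′ than the canonical starts in all 10 members, and the elements shown for HSPA8, HSP90AA1, HSPH1, DNAJB1 and HSPD1 lie inside these spans. A match to these letters is a description of the reference and no measurement of HSF1 binding.

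The siNC library held 18829544 counted reads on 26757 genes and the siLINP1 library 15383081 reads on 26898 genes. With 1 library per condition there is no spread between cultures to set a difference against, so no test was run, and the 95% intervals cover counting error only. A gene is written as higher or lower by its value, and a fold of 1.5 was taken as the mark for a larger difference. Of 15 genes that mark squamous keratinocytes, 8 were under 1 RPKM in both libraries (KRT5, KRT16, TP63, DSG3, PKP1, CDH1, IVL and LOR). Among the rest, ITGB4 reached 51.4 RPKM in siNC and 41.6 in siLINP1, SFN 10.7 and 6.82, and KRT14 7.89 and 3.46. DSP, FLG, KRT17 and KRT6A also reached 1 RPKM in at least 1 library. Of the 10 mesenchymal markers, 2 (COL1A2 and COL3A1) were under 1 RPKM in both libraries. VIM, which encodes a filament of mesenchymal cells, was the most read of them, at 61097 reads in siNC and 41992 in siLINP1. The 10 mesenchymal markers had 99778 and 66262 reads, and the 15 squamous markers 8277 and 5649. The 15 markers of gastric epithelium had 525 reads in siNC and 68 in siLINP1, where PGC (194 reads in siNC), PGA3 and LIPF were at 0 and TCN1 (75 reads in siNC) at 2. Of the list, 11 were under 1 RPKM in both libraries, and of the 8 with at least 10 reads 5 were lower and 3 higher in siLINP1, among the latter ATP4A with 13 and 28 reads. The part of these differences in the results on heat shock genes was not tested, and in bulk RNA fewer cells of a type and less RNA per cell cannot be told apart. The source of the reads on gastric markers in cultures labelled as HSC-1 was not tested either.

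The 10 members held 88519 reads in siNC, 0.470% of all reads (95% exact binomial interval 0.467% to 0.473%), and 66477 reads in siLINP1, 0.432% (0.429% to 0.435%). Levels of different genes were compared in RPKM, reads scaled to the length of the gene and to the depth of the library. HSP90AB1, HSPA8, HSPB1 and HSP90AA1 stood between 302 and 469 RPKM in siNC and between 288 and 456 in siLINP1, and ranked among the 187 genes with most RPKM in each library. HSPD1, HSPE1, DNAJB1 and HSPH1 followed between 29.7 and 119 RPKM in siNC, and HSPA1A and HSPA1B stood under 10 RPKM in both. The level of the last pair depends on how reads of their shared sequence were counted, which is not known. The order of the 10 was the same in the 2 libraries. Each gene stood above the next in this order by more than counting error in both libraries, except for HSPA1A and HSPA1B, whose ratio was 1.09 (0.949 to 1.25) in siNC and 1.01 (0.864 to 1.18) in siLINP1.

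**Figure D1:**
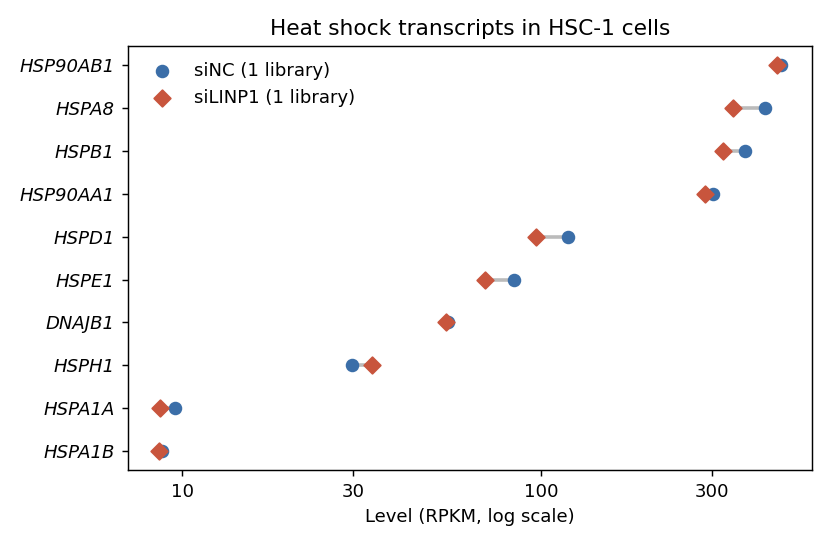
Level of each heat shock transcript in RPKM (log scale) in the siNC library (circles) and the siLINP1 library (diamonds), ordered by the siNC level. HSP90AB1, HSPA8, HSPB1 and HSP90AA1 stand between 288 and 469 RPKM in both libraries, and HSPA1A and HSPA1B at under 10.

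Of the 10 members, 9 were lower in siLINP1 and 1 was higher, with a median log2 fold change of -0.18, beside -0.02 over the 19840 genes. The values ran from -0.38 for HSPA8 to 0.10 for HSPH1. No member was higher by over 1.5-fold, where 14.4% of the 19840 genes were, and none was lower by over 1.5-fold, where 13.0% of them were. The interval lay wholly below no change for 8 members, against 25.6% of genes, and wholly above it for 1 member, HSPH1, against 23.0%. The narrow intervals come with many reads, so the 8 members with at least 1000 reads, all but HSPA1A and HSPA1B, were also set beside the 7071 genes with as many. Folds over 1.5 were rarer at this depth, with 387 of the 7071 genes higher and 252 lower, and 0 of the 8 members. Of these 8, 7 had the interval below no change, against 40.7% of the 7071 genes, and 1 had it above, against 31.7%. HSPA8, HSPD1, HSPE1 and HSPB1, 4 of the 8, were lower by over 1.2-fold, against 23.8%, and 0 were higher by over 1.2-fold, against 18.7%. The share of the 7071 genes with a lower value was 13.7% for HSPD1, 15.4% for HSPE1 and 20.7% for HSPB1, and rose to 36.1% for HSP90AA1, 39.8% for HSP90AB1, 42.2% for DNAJB1 and 66.6% for HSPH1. DNAJB1, HSP90AB1 and HSP90AA1 thus stood nearer the middle of these 7071 genes, and the lowest values were those of HSPA8 and of the mitochondrial pair. HSPA8, HSP90AA1 and HSP90AB1 also belong to the 110 genes with at least 30000 reads, whose interquartile range was -0.42 to -0.19. HSPA8 lay inside that range, and HSP90AA1 and HSP90AB1 lay above it.

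Across all genes, log2 fold changes also ran with gene length and with the number of reads. Among the 7071 genes with at least 1000 reads, the median log2 fold change was -0.34 in the 313 genes of up to 1000 bases and 0.10 in the 1464 genes over 6000 bases, and it was -0.01 at 1000 to 3000 reads and -0.32 in the 110 genes with at least 30000 reads. With the trend with length and reads removed (an analysis added after the data were examined), the median of the 10 members was -0.05 and 6 of them were lower, with values from -0.25 to 0.11. The direction turned for HSP90AA1 (0.02), HSP90AB1 (0.11) and HSPB1 (0.01). Scaling by total count moved every log2 fold change up by 0.08, and 9 of 10 members were still lower, with the interval below no change in 6, the same as before without HSPA1A and DNAJB1.

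**Figure D2:**
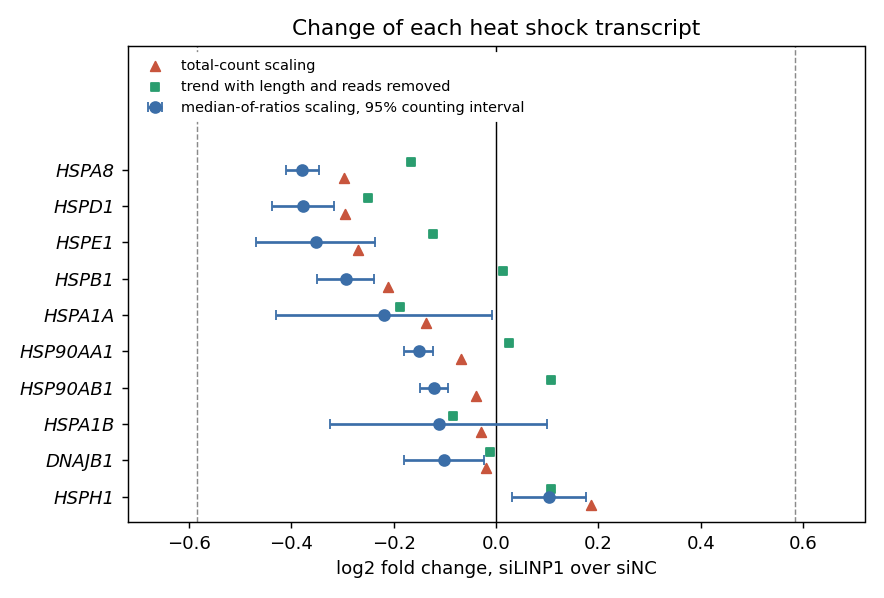
Log2 fold change of siLINP1 over siNC for each heat shock gene, with median-of-ratios scaling and its 95% counting interval (circles), with total-count scaling (triangles) and with the trend with gene length and reads removed (squares). Dashed lines mark 1.5-fold, which no value reaches, and the squares of HSP90AA1, HSP90AB1 and HSPB1 lie above 0.

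HSPA8 encodes the constitutive HSP70 of the cytosol, which folds new proteins and uncoats clathrin vesicles. It lies on the minus strand of chromosome 11 from 122928200 to 122933043 and had 19540 reads (422 RPKM) in siNC and 12999 reads (344 RPKM) in siLINP1. The scaled count in siLINP1 was 0.769 of that in siNC, a log2 fold change of -0.38 (-0.41 to -0.35), the lowest of the 10. Among the genes with at least 1000 reads, 13.6% had a lower value. With the trend removed, the value was -0.17. The 3 genes whose RPKM values were nearest to those of HSPA8 over the 2 libraries were IFITM3, which has near-identical paralogs (415 and 332 RPKM), UQCRH (442 and 350 RPKM) and TAGLN2 (446 and 338 RPKM), at a Euclidean distance on the log2 scale of 0.054, 0.074 and 0.083. With 2 libraries this likeness says no more than that these genes had like levels.

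HSPA1A and HSPA1B encode the stress-inducible HSP70, in a pair of nearly identical genes without introns on chromosome 6, both on the plus strand, at 31783291 to 31785719 and at 31795512 to 31798031. HSPA1A had 436 reads in siNC and 324 in siLINP1 (RPKM 9.53 and 8.67), and HSPA1B had 416 and 333 (8.77 and 8.59 RPKM). By these counts they are the least abundant members, far below the constitutive HSPA8 in both libraries. The log2 fold change of HSPA1A was -0.22 (-0.43 to -0.01) and that of HSPA1B -0.11 (-0.32 to 0.10), and the difference between them was -0.11 (-0.40 to 0.19), so they were not told apart at this depth. Of the 50-base windows of the HSPA1A transcript, 75.1% occur exactly in HSPA1B, with an unbroken run of 1715 bases. How reads were shared between them, or dropped, thus depends on the aligner and counting mode. If such reads were dropped, the RPKM of both would be too low and their rank among the 10 uncertain, which was not tested. The sum of both, 852 and 657 reads, gave -0.17 (-0.31 to -0.02).

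HSPH1, an HSP110 protein that acts as nucleotide exchange factor for HSP70, was the member that was higher in siLINP1. It lies on the minus strand of chromosome 13 from 31709111 to 31736525 and had 3207 reads in siNC and 2980 in siLINP1 (RPKM 29.7 and 33.8), a log2 fold change of 0.10 (0.03 to 0.18). It is the longest of the 10, at 5727 bases, and the value was 0.11 with the trend removed. DNAJB1, a J-domain protein that delivers substrates to HSP70 and stimulates its ATPase, lies on the minus strand of chromosome 19 from 14625576 to 14640134. It had 2989 reads in siNC and 2410 in siLINP1 (RPKM 55.1 and 54.4), a log2 fold change of -0.10 (-0.18 to -0.02). Total-count scaling gave -0.02, with an interval that includes no change. The ratio of HSPA8 to HSPH1 in RPKM was 14.2 in siNC and 10.2 in siLINP1, and that of HSPA8 to DNAJB1 7.65 and 6.31. The log2 fold change of HSPA8 was lower than that of HSPH1 by more than counting error, with a difference of -0.48 (-0.56 to -0.40), and lower than that of DNAJB1, with a difference of -0.28 (-0.36 to -0.19). These ratios within a library do not depend on the scaling, but the genes differ in length and reads. With the trend removed, HSPA8, HSPH1 and DNAJB1 stood closer together, at -0.17, 0.11 and -0.01. The 6 pairs compared were chosen after their values had been seen.

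HSP90AA1 and HSP90AB1 encode the inducible and the constitutive HSP90 of the cytosol, the chaperone of many kinases and steroid receptors. HSP90AA1 lies on the minus strand of chromosome 14 from 102547075 to 102606086 and had 23132 reads in siNC and 18020 in siLINP1 (RPKM 302 and 288). HSP90AB1 lies on chromosome 6, plus strand, at 44213903 to 44221625 and had 25548 and 20319 reads (469 and 456 RPKM), the most of the 10. The log2 fold change was -0.15 (-0.18 to -0.12) for HSP90AA1 and -0.12 (-0.15 to -0.09) for HSP90AB1, and both turned to the other side of 0 when the trend was removed. Counting error did not tell these values apart, with a difference of -0.03 (-0.07 to 0.01), and the RPKM of HSP90AA1 was 0.643 of that of HSP90AB1 in siNC and 0.630 in siLINP1. Only the first of this pair holds the inverted repeats in the window before its start.

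HSPB1 (HSP27), a small heat shock protein that holds unfolded proteins and binds actin filaments, lies on chromosome 7, plus strand, at 75931875 to 75933614. It had 6287 reads in siNC and 4437 in siLINP1 (RPKM 372 and 322), a log2 fold change of -0.29 (-0.35 to -0.24). At 897 bases it is the shortest of the 10, and the 313 genes of up to 1000 bases had a median of -0.34, so it was 0.05 above the median of its length class. The interquartile range of that class, -0.48 to -0.14, held both HSPB1 and HSPE1, the other member of up to 1000 bases. HSPA8 and HSPD1, in contrast, lay below the interquartile range of their own length class. That range was -0.28 to 0.12 in the 1373 genes of 2000 to 3000 bases, whose median was -0.08. Among genes of like read number, HSPA8 lay within the interquartile range, -0.42 to -0.19 in the 110 genes with at least 30000 reads. HSPD1 lay below that of the 2188 genes with 3000 to 10000 reads, -0.245 to 0.145.

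HSPD1 (HSP60) and HSPE1 (HSP10) form the chaperonin of the mitochondrial matrix, a barrel and its lid. HSPD1 lies on the minus strand of chromosome 2 from 198351308 to 198364998 and had 5454 reads in siNC and 3632 in siLINP1 (RPKM 119 and 96.9), a log2 fold change of -0.38 (-0.44 to -0.32). HSPE1 lies next to it on the plus strand, at 198364721 to 198368187, and had 1510 and 1023 reads (84.1 and 69.8 RPKM), a log2 fold change of -0.35 (-0.47 to -0.24). Barrel and lid were lower by amounts that counting error did not tell apart, with a difference of -0.02 (-0.15 to 0.10), and the ratio of HSPD1 to HSPE1 in RPKM was 1.41 in siNC and 1.39 in siLINP1. With the trend removed, HSPD1 was at -0.25, the lowest of the 10, and HSPE1 at -0.12. HSPA9, the HSP70 of the same compartment, had 5670 and 5605 reads and a log2 fold change of 0.19 (0.14 to 0.25), which put HSPD1 0.933 times as high as HSPA9 in siLINP1, after 1.38 times in siNC (a log2 difference of -0.57, from -0.65 to -0.49).

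The gene spans of HSPD1 and HSPE1 overlap by 278 bases on opposite strands, and as it is not stated whether the counting used strand, reads there cannot be told apart. HSPE1 also lies wholly inside the readthrough gene HSPE1-MOB4, itself read 994 times in siNC and 689 times in siLINP1. Of the exon bases of HSPE1, 34.5% are shared with exons of that gene. With both genes summed, the log2 fold change was -0.34 (-0.43 to -0.25). HSPA8 hosts 3 small nucleolar RNA genes, of which SNORD14E had 37 and 6 reads, few beside those of the host.

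Heat shock genes have many processed pseudogenes, whose sequence can draw reads away from the parent. The 48 pseudogenes of the members in the table held 67 reads in siNC and 42 in siLINP1 in all, led by HSPA8P8 with 10 and 5. The largest families were those of HSPD1 (15 genes, 13 and 6 reads), HSPA8 (11 genes, 22 and 10 reads) and HSPE1 (9 genes, 7 and 7 reads). Beside the HSPA1A and HSPA1B pair, HSPD1 (41.3%) and HSPE1 (37.2%) shared most 50-base windows with other places in GRCh37, and HSPH1 (0.212%) and DNAJB1 (4.29%) the least. HSP90AA1 (24.6%), HSPA8 (23.2%), HSP90AB1 (22.5%) and HSPB1 (16.6%) lay between. Whether reads of these windows were dropped or kept by the counting was not tested.

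The other genes of the chaperone network were taken from 8 lists of 79 genes, without selection by value, though with earlier results of these data known. Counts beyond 1.5-fold in these lists stand beside 14.4% higher and 13.0% lower among the 19840 genes. Among the 7071 genes with at least 1000 reads, 387 were higher and 252 lower. The list of heat shock factors also holds HSBP1, a protein that binds such factors, and its relative HSBP1L1. It had 5 of 7 genes past the read minimum, of which 1 (HSF2) was higher and 1 (HSBP1L1, at 12 and 6 reads) lower by over 1.5-fold. HSBP1 had 2248 reads in siNC and 1459 in siLINP1, a log2 fold change of -0.41 (-0.51 to -0.32). HSF1, the main activator of the response, had 2512 reads in siNC and 2197 in siLINP1, a log2 fold change of 0.02 (-0.07 to 0.10). Of the 10 other HSP70 and HSP110 genes, 1 (HSPA4L) was higher by over 1.5-fold and 0 were lower, with a median of 0.08. HSPA6, which is strictly stress-inducible, had 13 and 15 reads (0.293 and 0.414 RPKM).

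Among the other genes listed as cytosolic J-domain proteins, not all of which act in the cytosol, 11 of 12 passed the minimum. Of these, 1 was higher and 2 were lower by over 1.5-fold, with a median of -0.02. DNAJB5 was higher in siLINP1, with 236 reads in siNC, 624 in siLINP1 and a log2 fold change of 1.61 (1.39 to 1.83). DNAJC8, which is linked to splicing, was lower, with 1772 and 925 reads and -0.73 (-0.84 to -0.61), and DNAJB6, the most read of the list, had 3819 and 2846 reads and -0.21 (-0.29 to -0.14). Of the 9 other genes listed as small heat shock proteins, 5 passed the minimum, 2 higher and 3 lower by over 1.5-fold. HSPB9 (3 and 9 reads) and HSPB6 (30 and 17 reads) are counted there with intervals that include no change. HSPB8, which works with BAG3 in selective autophagy, went from 249 reads in siNC to 492 in siLINP1, a log2 fold change of 1.19 (0.97 to 1.42). HSPB11, which bears the family name but is a subunit of the transport machinery of cilia, had 335 and 156 reads and -0.89 (-1.18 to -0.61). HSPB3 had 13 and 0 reads, and its counting interval ended at -1.40.

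None of the 13 HSP90 cochaperones differed by over 1.5-fold, and 9 were higher and 4 lower, with a median of 0.12. CDC37, which brings kinases to HSP90, had 6587 reads in siNC and 6692 in siLINP1, a log2 fold change of 0.23 (0.18 to 0.28). None of the 9 cochaperones and exchange factors of HSP70 differed by over 1.5-fold either, and their median was -0.04. The medians of this list, of the heat shock factors, of the J-domain proteins and of the small heat shock proteins changed sign under other settings. STUB1, a ubiquitin ligase that binds HSP70, had 4709 and 3369 reads and -0.27 (-0.34 to -0.21).

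The TRiC chaperonin, the cytosolic counterpart of HSPD1 and HSPE1 that folds actin and tubulin, had 0 of 8 subunits beyond 1.5-fold, with 7 lower and 1 (CCT5, 0.34) higher and a median of -0.24. CCT3, the most read subunit, had 7958 reads in siNC and 5830 in siLINP1, a log2 fold change of -0.24 (-0.29 to -0.19). With the trend removed, the median of the subunits was -0.11. Of the 12 mitochondrial chaperones and proteases, 0 lay beyond 1.5-fold and 7 were higher and 5 lower, with a median of 0.03, while HSPD1 and HSPE1 stood at -0.38 and -0.35. With the trend removed, the median of these 12 was 0.11, and HSPD1 and HSPE1 stood at -0.25 and -0.12.

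The genes with the heat shock element were also followed beyond the 10 members, a set chosen after the data were examined. Of 60 other genes with at least 3 units in the window, 54 were in the table and 35 passed the read minimum. Of these, 2 (5.71%) were higher and 4 (11.4%) lower by over 1.5-fold, with a median of -0.21. Of all 1091 genes past the minimum with at least the pair of repeats, 114 (10.4%) were higher and 127 (11.6%) lower by over 1.5-fold, with a median of -0.05. None of these shares exceeds the 14.4% and 13.0% of all 19840 genes, whose median was -0.02. The sets were not matched to that background in reads or length. Folds over 1.5 were rarer among the 7071 genes with at least 1000 reads, with 387 higher and 252 lower. Among the members, the 4 with the longer array covered the whole range, from HSPA8 at -0.38 and HSPD1 at -0.38 over HSP90AA1 at -0.15 to HSPH1 at 0.10, and HSP90AB1 and HSPE1, which had no match, stood at -0.12 and -0.35.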

How the data were processed

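Total RNA of HSC-1 cells was sequenced on an Illumina HiSeq instrument. Per the study's methods, the authors used Tophat2 for alignment to GRCh37/hg19 and then applied HTSeq, whose role in making the counts is not spelled out, while the submitters' processing notes also list HISAT, HISAT2 and Bowtie2. Versions, gene annotation, counting mode and strand setting are not given in the sources used here. The deposited table holds raw read counts per gene, the RPKM values that the authors made from them, and the gene length, another deposited column. Its 12 other columns of per-sample values were not used.

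Each library was divided by its median-of-ratios size factor (1.08 for siNC and 0.930 for siLINP1), taken over genes with a read in both libraries. Genes with fewer than 10 reads in all were left out and no pseudocount was added. The log2 fold change is siLINP1 over siNC, with a 95% interval from the exact Clopper-Pearson limits for the share of a gene's reads in siLINP1. With 1 library per group there is no p-value. Differences between 2 genes have a Wald interval. A gene was called beyond a fold of 1.5, or where its interval lay on 1 side of no change.

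The members and lists were chosen with earlier results of these data known. The genes named were all members, LINP1, of each list the most read gene and those with the whole interval beyond 1.5-fold, the most read pseudogene, and the 3 genes nearest in log2 RPKM to the member whose interval lay farthest from 0. Markers, HSF2, HSBP1, HSBP1L1, HSPA4L, HSPA6, CCT5, SNORD14E, HSPB6 and HSPB9 were named after their values were seen. Coordinates of genes are those of the table. Sequences, canonical starts and the motif windows come from GRCh37 with the GENCODE annotation lifted to it, and windows of 50 bases were searched on both strands.

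Other settings tried were total-count scaling (CPM), edgeR TMM factors, upper-quartile scaling, size factors from genes with at least 100 reads, pseudocounts of 1 and 5, minimums of 1, 100 and 1000 reads, and folds of 1.2 and 2. The removal of a trend with length and reads (lowess, fraction 0.3, 13336 genes with at least 100 reads), the sum of HSPE1 with HSPE1-MOB4 and the set of genes with at least 1000 reads as background were added after the data were examined. The calculations were tested on simulated data. Software was edgeR 4.0.16 (for TMM) under R 4.3.3, and Python 3.11.15 with scipy 1.17.1, numpy 2.4.6, statsmodels 0.14.6, pandas 2.3.3 and matplotlib 3.10.9.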

Additional observations from a re-analysis of the deposited data

How the results depend on the processing

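No paired analysis was possible because each condition has 1 library, and no library could be left out. Under TMM and upper-quartile scaling, pseudocounts of 1 and 5 and minimums of 1 or 100 reads, no value of a member moved beyond its counting interval, and 9 of 10 members were lower in each. Medians of the lists near 0 or of few genes changed sign: the heat shock factors to -0.20 at minimums of 1 and of 1000 reads, the J-domain list to 0.07 under total-count scaling and at a minimum of 100 reads, 0.0074 under TMM, 0.013 with size factors from genes with at least 100 reads and 0.12 with the trend removed, the small heat shock proteins from -0.61 to 0.15 at a minimum of 100 reads and 0.27 with the trend removed, and the HSP70 cochaperones to 0.041 under total-count scaling. Under TMM scaling and size factors from genes with at least 100 reads, 6 members had the interval below no change. Scaling by total count gave -0.30 for HSPA8, -0.069 for HSP90AA1, -0.039 for HSP90AB1, 0.19 for HSPH1, -0.019 for DNAJB1, -0.21 for HSPB1, -0.29 for HSPD1, -0.10 for the median of the members and -0.16 for that of the TRiC subunits, and it gave 3314 genes higher and 2069 lower by over 1.5-fold in place of 2863 and 2573. Size factors from genes with at least 100 reads gave -0.12 for HSP90AA1 and -0.092 for HSP90AB1. With at least 1000 reads, the median of the J-domain list was -0.12, and the list of small heat shock proteins had no gene left. At a fold of 1.2, 4 members were lower. Outside the 10 most read genes, the members held 0.495% of reads in siNC and 0.450% in siLINP1. With the trend with length and reads removed, the values were -0.17 for HSPA8, 0.025 for HSP90AA1, 0.11 for HSP90AB1, -0.013 for DNAJB1, 0.0145 for HSPB1, -0.25 for HSPD1, -0.12 for HSPE1, -0.048 for the median of the members and -0.11 for that of the TRiC subunits. The cause of these shifts was not tested. Depth limits HSPA1A and HSPA1B most, whose intervals are the widest of the 10.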
